A study of Mus musculus with 16 samples.

Results

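The genes described here encode parts of the desmosome and of the cornified envelope: Dsp, Dsg1a, Dsg2, Dsc2, Pkp1, Pkp2, Jup, Evpl, Ppl and Eppk1. These 10 genes were taken from 40399 GENCODE genes that had a transcript in the assembly of targeted RNA sequencing from adult C57BL/6J mice. A transcript was given to a gene where its largest exonic overlap on the same strand was with that gene, and the values of a gene's transcripts were added within each library. RNA from 8 tissues was enriched with probes and sequenced, with 1 library per tissue and probe design, 16 libraries in all. The splice junction design tiled short stretches beside annotated splice sites, leaving out the most abundant regions in brain, and the lncRNA design targeted long noncoding RNA loci. The brain group comprised Brain, Cerebellum, Cortex and OlfactoryBulb, and the other group, called nonbrain here, comprised Heart, Kidney, Liver and the library labelled Testes. Cerebellum, Cortex and OlfactoryBulb are subregions of the brain, so that the brain tissues are not fully independent units. The mice carried no transgene or treatment in the labels. Nonbrain RNA was pooled from organ pieces of the same mouse, extracted with another kit and hybridised in other pools than brain RNA, so that tissue group, extraction and pool cannot be told apart. All libraries carry the label of biological replicate 1, and p-values therefore cover the spread between tissues and not between mice.

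Desmosomes are junctions that fasten neighbouring cells to each other and anchor their intermediate filaments. Desmosomal cadherins (desmogleins and desmocollins) span the membrane, the armadillo proteins plakoglobin and the plakophilins bind their tails, and desmoplakin ties this plaque to keratin in epithelia and to desmin in heart muscle. In stratified epithelia, envoplakin and periplakin start the scaffold of the cornified envelope, the cross-linked shell of the outermost cells, and in heart the desmosome sits in the intercalated disc, where cardiomyocytes meet end to end.

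The libraries held 8930235 to 43889288 recovered fragments, spike-ins included, of which the 10 genes took 3098 (Cortex) to 417060 (the library labelled Testes) in the splice junction design and 40 to 3926, in the same order, in the lncRNA design. The markers of the library labelled Testes went against its label. A list of 12 germ cell markers summed to 42.1 scaled fragments in its splice junction library, against 72.2 to 468.6 in Heart, Kidney and Liver. Only markers with at least 10 fragments in some library were ranked, 5 in the splice junction and 3 in the lncRNA design, and none of these was highest there. Of the 12 germ cell markers 6 were listed at 0 there, including Prm2, Tnp1 and Tnp2, which package sperm DNA, and 7 in Heart, 9 in Kidney and 8 in Liver, so that the zeros do not set this library apart from the other nonbrain ones. In the lncRNA design 8 were listed at 0 there and 10 in each of Heart, Kidney and Liver, and the sum is not compared because Sycp3 made up nearly all of it. Of a list of 12 keratinocyte markers, 9 were highest there, including Krt14 at 51523 and Krt5 at 15282, and the summed level was 117865 against 2300 to 4697 in Heart, Kidney and Liver and 338 to 601 in the brain tissues. Not all of the list went this way: 2 were listed at 0 there, against 4 in Heart, 3 in Kidney and 3 in Liver, and 3 in its lncRNA library. Of the 10 with enough fragments to be compared, 1 was at least 4-fold lower there than in Brain in both designs. A list of 10 mucosal and tongue-type epithelial markers moved with the keratinocyte sum, at a sum of 57838 against 957 to 2457, most of it Krt17 (53335), while Krt4 was at 5.87 and Krt13 at 1.60. Of 7 skeletal muscle markers in the assembly 4 were highest there, with a sum of 1463 against 725 to 125683. The part of these cell types in the results was not tested, and this library is given no tissue name beyond its label. In bulk tissue, fewer cells of a type and less RNA per cell cannot be told apart. Listed zeros can be failed estimates, since Myh6, a heart myosin, was listed at 0 in the splice junction library of Heart.

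Across the 8 tissues, 7 of the 10 genes were highest in the library labelled Testes in both designs (Dsp, Dsg1a, Dsc2, Pkp1, Jup, Evpl and Eppk1), 2 in Liver (Dsg2 and Ppl) and 1 in Heart (Pkp2). The share of all genes highest in each library was not counted, so these numbers are a description only. With libraries scaled instead by their total of fragments without spike-ins, 8 were highest in the library labelled Testes in both designs, Ppl among them, Pkp2 stayed highest in Heart, and Dsg2 was highest in Heart in the splice junction and in Liver in the lncRNA design. That scaling multiplies every splice junction ratio of Liver to Heart by 0.634, and every ratio of the library labelled Testes by 1.46 against Heart, 1.35 against Kidney, 2.31 against Liver and 0.683 against Brain. Levels are given in scaled fragments, the authors' fragment estimates divided by a size factor for each library. They compare a gene between libraries of a design. They compare genes with each other only after division by transcript length.

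**Figure D1:**
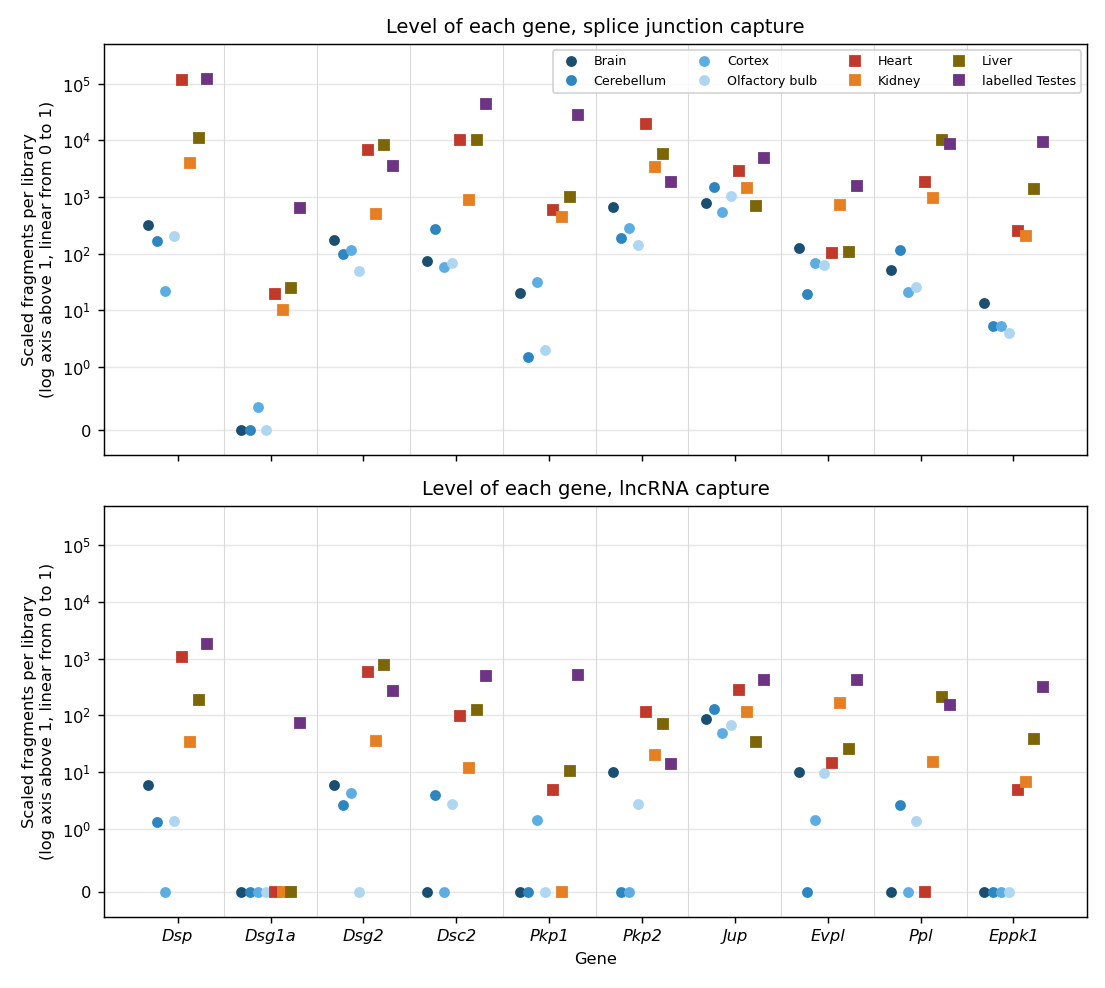
Levels of the 10 genes in scaled fragments (log axis) in each tissue, for the splice junction and the lncRNA design, with 1 point per library. In the splice junction design Dsp reached 120134 in the library labelled Testes and 114336 in Heart, and Dsg1a was listed at 0 in 3 of the 4 brain tissues.

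Dsp (ENSMUSG00000054889.10, GRCm38 chr13:38151294-38198577, plus strand) encodes desmoplakin, the plakin that links the plaque to intermediate filaments. Its splice junction level was 114336 in Heart, 3940.6 in Kidney, 11168 in Liver and 120134 in the library labelled Testes, against 322.9 in Brain, 164.1 in Cerebellum, 21.6 in Cortex and 207.7 in OlfactoryBulb. The groups did not overlap, and Heart and the library labelled Testes stood at least 10 times above every other tissue. By lncRNA capture Dsp was at 1068.5 in Heart, 33.8 in Kidney, 182.7 in Liver and 1812 in the library labelled Testes, and between 0 and 5.87 in the brain tissues.

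Desmoplakin is made in a long and a short form, known as desmoplakin I and II, by the choice of a splice donor in exon 23, which encodes the central rod. The assembly held 3 ends of this exon. It began at chr13:38191361 in every form and ended at 38191858 in the short form (498 nucleotides), at 38192326 in a middle form (966 nucleotides) and at 38193655 in the long form (2295 nucleotides), and each was joined to exon 24 at chr13:38194696-38198577. The sequences at the inner donors and at the joins are shown because they tell the forms apart. In the donors, the capitals mark the GT that follows the shorter exon. In the joins, the capitals mark the first bases of exon 24. All were read on the plus strand from GENCODE M21 transcripts on GRCm38.
Inner donor, chr13:38191835-38191882: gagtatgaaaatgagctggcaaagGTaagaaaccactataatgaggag
Middle donor, chr13:38192303-38192350: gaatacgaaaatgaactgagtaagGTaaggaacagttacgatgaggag
Short form join, exon 23 to exon 24: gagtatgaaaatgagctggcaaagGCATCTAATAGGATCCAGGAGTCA
Long form join, exon 23 to exon 24: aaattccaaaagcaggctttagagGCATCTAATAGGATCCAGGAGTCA

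The short form took the larger share of the splice junction Dsp value in each of the 7 libraries with at least 100 Dsp fragments. Its share was 71.0% in Heart, 72.5% in Kidney, 74.8% in Liver, 80.02% in the library labelled Testes, 81.3% in Brain, 81.6% in Cerebellum and 87.2% in OlfactoryBulb. The long form took the most in Heart (28.4%) and the least in OlfactoryBulb (12.8%), and the middle form, whose intron chain is not in GENCODE M21, took 0% to 3.23%. In the lncRNA design, with 224 fragments, Heart had 21.4% short and 78.6% long form, and with 1590 fragments the library labelled Testes had 61.9% and 38.1%. The larger form thus changed with the probe design in Heart. These shares are estimates of the authors' software and come with no replicate error. A first exon of 42 nucleotides at chr13:38145416-38145457, upstream of the annotated Dsp start, was used by transcripts with 67.4% to 70.2% of the splice junction value in the 4 nonbrain libraries, by 64.6% in OlfactoryBulb, 44.7% in Cerebellum and 35.03% in Brain.

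**Figure D2:**
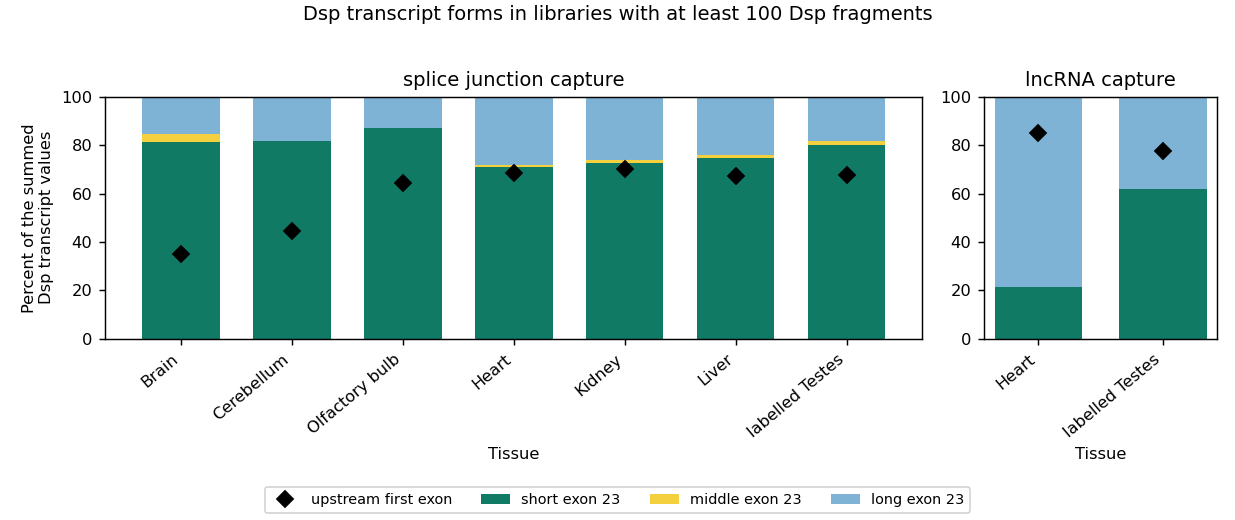
Share of the Dsp value (percent) in transcripts with each end of exon 23 (bars) and in transcripts with the upstream first exon (diamonds), for libraries with at least 100 Dsp fragments. Short form shares lie between 71.0% and 87.2% in the splice junction design and at 21.4% and 61.9% in the lncRNA libraries of Heart and of the library labelled Testes.

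The 3 cadherins lie on mouse chromosome 18 and differed in where they were highest. Dsg1a (ENSMUSG00000069441.3, chr18:20310811-20343350, plus strand) encodes a desmoglein of stratified epithelium. It was at 628.6 in the splice junction library labelled Testes, 25.2 in Liver, 19.2 in Heart and 10.0 in Kidney. In Cortex it was at 0.372, which is 1 fragment, and in the other brain tissues it was listed at 0. The lncRNA library labelled Testes had 74.1, and Dsg1a was listed at 0 in the other 7 lncRNA libraries. Dsg1a has near-identical neighbours, Dsg1b and Dsg1c, and the division of reads among them is uncertain.

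Dsg2 (ENSMUSG00000044393.15, chr18:20558074-20604521, plus strand) encodes the desmoglein found in simple epithelia and heart. Its splice junction level was 8223.6 in Liver, 6706.6 in Heart, 3521.1 in the library labelled Testes and 498.0 in Kidney, and 50.2 to 174.8 in the brain tissues. Liver exceeded Heart 1.23-fold (95% exact interval 1.18 to 1.27) and in the lncRNA design 1.34-fold (1.08 to 1.66). Scaled by total fragments, the splice junction ratio turned to 0.778. The intervals here and below cover counting error only. The lncRNA levels were 764.3 in Liver, 572.4 in Heart, 264.4 in the library labelled Testes and 35.5 in Kidney, which is the same order.

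Dsc2 (ENSMUSG00000024331.11, chr18:20030633-20059554, minus strand) encodes the most widely expressed desmocollin, the partner cadherin of the desmogleins. The splice junction library labelled Testes had 43972, above Heart at 10208, Liver at 10178, Kidney at 893.1, and the brain tissues at 57.6 to 267.6. Liver and Heart were not told apart by counting error, with a ratio of 0.997 (0.967 to 1.03), which was 0.632 with the scaling by total fragments. By lncRNA capture Dsc2 was at 501.4 in the library labelled Testes, 126.1 in Liver, 95.4 in Heart and 11.8 in Kidney, and at 0 to 3.94 in the brain tissues.

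Of the armadillo proteins, Pkp1 (ENSMUSG00000026413.12, chr1:135871395-135919207, minus strand) encodes plakophilin 1, the plakophilin of stratified epithelium. Its splice junction level was 27579 in the library labelled Testes, 1017.9 in Liver, 593.5 in Heart and 437.2 in Kidney. The brain tissues were between 1.53 and 32.0. With lncRNA probes it was at 512.8 in the library labelled Testes, at 10.3 in Liver and 4.77 in Heart, and at 0 in Kidney and in 3 of the 4 brain tissues.

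Pkp2 (ENSMUSG00000041957.15, chr16:16213318-16272712, plus strand) encodes plakophilin 2, the plakophilin of heart desmosomes. It was the only member for which the library labelled Testes was the lowest of the nonbrain libraries in both designs, with 1862.4 in the splice junction design against 19764 in Heart, 5748.4 in Liver and 3437.2 in Kidney. The brain tissues had 140.5 to 658.0. With lncRNA probes Pkp2 was at 114.5 in Heart, 69.5 in Liver, 20.3 in Kidney and 13.7 in the library labelled Testes, and at 0 to 9.78 in the brain tissues, so that Heart led in each design. Kidney and the library labelled Testes held 12 recovered fragments each by lncRNA capture and were not told apart there.

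Jup (ENSMUSG00000001552.14, chr11:100368958-100397763, minus strand) encodes plakoglobin, which serves desmosomes and adherens junctions alike. It had the narrowest range of the 10 genes in either design: the splice junction levels were 4887.0 in the library labelled Testes, 2903.3 in Heart, 1435.9 in Kidney and 701.3 in Liver, and 798.1 in Brain, 1491.4 in Cerebellum, 543.7 in Cortex and 1058.8 in OlfactoryBulb. Cerebellum was above Kidney and Liver, so the groups overlapped. In the lncRNA design the levels were 418.2, 281.4, 113.2 and 33.5 in the nonbrain libraries in that order, and 49.1 to 127.3 in the brain tissues.

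Of the other plakins, Evpl (ENSMUSG00000034282.3, chr11:116220559-116238077, minus strand) encodes envoplakin. It was at 1549.9 in the splice junction library labelled Testes, 728.0 in Kidney, 107.9 in Liver and 102.7 in Heart, and at 127.3 in Brain, 68.1 in Cortex, 62.8 in OlfactoryBulb and 19.6 in Cerebellum. Brain was above Heart and Liver, and Liver and Heart were not told apart by counting error, with a ratio of 1.05 (0.771 to 1.44), which was 0.667 with the scaling by total fragments. The lncRNA levels were 410.3 in the library labelled Testes, 163.9 in Kidney, 25.7 in Liver and 14.3 in Heart, against 0 to 9.78 in the brain tissues.

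Ppl (ENSMUSG00000039457.4, chr16:5086291-5132421, minus strand) encodes periplakin, the partner of envoplakin. Its splice junction level was 10163 in Liver, 8711 in the library labelled Testes, 1870.3 in Heart and 960.6 in Kidney, against 21.2 to 115.8 in the brain tissues. Liver, where Evpl was low, was thus the highest tissue for Ppl on this scale. In the lncRNA design Ppl was at 208.4 in Liver, 149.3 in the library labelled Testes and 15.2 in Kidney, was listed at 0 in Heart, and lay between 0 and 2.63 in the brain tissues.

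Eppk1 (ENSMUSG00000115388.2, chr15:76101481-76120195, minus strand) encodes epiplakin, a plakin that binds keratin in epithelia. The splice junction level was 9519.2 in the library labelled Testes, 1372.9 in Liver, 250.2 in Heart and 206.6 in Kidney, and 4.05 to 13.3 in the brain tissues. Heart and Kidney were not told apart by counting error, with a ratio of 1.21 (0.993 to 1.47). In the lncRNA design Eppk1 was at 318 in the library labelled Testes, 38.6 in Liver, 6.76 in Kidney and 4.77 in Heart, and was listed at 0 in every brain tissue.

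The design implies a comparison of the library labelled Testes with Heart, which also builds desmosomes, and with Kidney, Liver and Brain. With 1 library per tissue and design there is no test, and a gene was counted as higher or lower where it passed 4-fold in the same direction in both designs. Against Heart, 6 of the 10 genes were higher (Dsg1a, Dsc2, Pkp1, Evpl, Ppl and Eppk1) and 1 was lower (Pkp2), where 4.74% of the 30790 genes and gene models with a mean of at least 10 scaled fragments were higher and 4.34% lower. All 10 genes passed that filter. Higher genes made up 52.2% of all genes past 4-fold, and 67.4% with values scaled by total fragments without spike-ins, which left the count of 6 as it was. The median log2 ratio of the 10 was 2.16 in the splice junction and 3.56 in the lncRNA design.

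The ratio of Dsp to Heart was 1.05 (1.04 to 1.06) in the splice junction design, or 1.54 with the scaling by total fragments, and Dsp was 1.70-fold higher (1.47 to 1.96) in the lncRNA design. Pkp2 was 10.6-fold lower than in Heart (10.2 to 11.0), and 8.37-fold lower (4.03 to 18.4) in the lncRNA design, and Dsg2 was 1.90-fold (1.83 to 1.98) and 2.16-fold lower (1.72 to 2.71). With the scaling by total fragments Pkp2 was 7.24-fold and 4.82-fold lower, of which the latter is short of 4-fold once the pseudocount is added, and Dsg2 was 1.30-fold and 1.25-fold lower. These are the desmoglein and the plakophilin of heart. Those of stratified epithelium were on the other side: Pkp1 was 46.5-fold higher (42.0 to 51.6), and Dsg1a 32.7-fold higher (18.6 to 63.4). By lncRNA capture Pkp1 was 108-fold higher over a single Heart fragment (19.2 to 4256), and Dsg1a was at least 5.18-fold higher, from a floor of 3 fragments in Heart. Eppk1 was 38.0-fold, Evpl 15.1-fold, Ppl 4.66-fold, Dsc2 4.31-fold (4.20 to 4.42) and Jup 1.68-fold higher in the splice junction design.

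Against Kidney, 7 genes were higher and 0 lower (Dsp, Dsg1a, Dsg2, Dsc2, Pkp1, Ppl and Eppk1), where 4.44% of all genes were higher and 4.78% lower. The splice junction ratios of these 7 ran from 7.07 (Dsg2) to 63.1 (Pkp1, 58.4 to 68.2), and Dsp was 30.5-fold higher (29.7 to 31.3) and Dsc2 49.2-fold. Below 4-fold were Jup, 3.40-fold higher, Evpl, 2.13-fold higher, and Pkp2, 1.85-fold lower. These are plakoglobin, envoplakin and plakophilin 2.

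Against Liver, 6 genes were higher and 0 lower (Dsp, Dsg1a, Pkp1, Jup, Evpl and Eppk1), where 5.75% of all genes were higher and 4.94% lower. In the splice junction design Pkp1 was 27.1-fold higher, Dsg1a 24.9-fold (17.3 to 37.4), Evpl 14.4-fold, Dsp 10.8-fold (10.6 to 11.0), Jup 6.97-fold and Eppk1 6.93-fold. Dsc2 was 4.32-fold higher in the splice junction design and 3.98-fold (2.96 to 5.46) in the lncRNA design, which falls just short in the latter. Dsg2, Pkp2 and Ppl were higher in Liver, by 2.34-fold, 3.09-fold and 1.17-fold. With the scaling by total fragments Dsg2 was level, at 1.01-fold, Pkp2 was 1.34-fold higher in Liver, and Ppl turned, at 1.98-fold higher in the library labelled Testes (mean log2 ratio of both designs 0.57).

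Against Brain, 9 genes were higher and 0 lower, where 5.94% of all genes were higher and 9.98% lower. In the splice junction design Pkp1 was 1362-fold higher (1077 to 1747), Eppk1 715-fold, Dsc2 587-fold, Dsp 372-fold (351 to 395) and Ppl 167-fold, and Dsg1a was at least 724-fold higher. Dsg2 was 20.1-fold, Evpl 12.2-fold and Jup 6.12-fold higher, and Pkp2 was 2.83-fold higher in the splice junction and 1.40-fold in the lncRNA design.

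**Figure D3:**
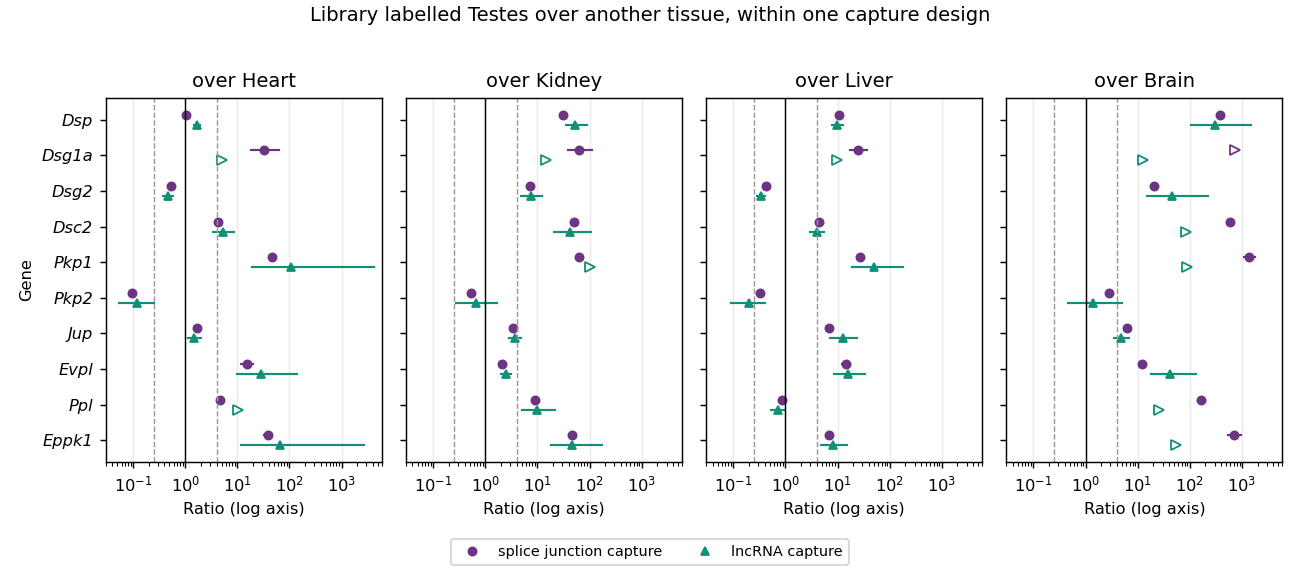
Ratio of the level in the library labelled Testes to that in Heart, Kidney, Liver and Brain (log axis) for each gene and design, with 95% exact counting intervals, open triangles for lower bounds and dashed lines at 4-fold. Against Heart, Pkp1 is at 46.5 and Dsp at 1.05 in the splice junction design, and Pkp2 lies below 1 in both designs.

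Because keratinocyte markers moved with the library labelled Testes, the splice junction level of each gene was also given as a percent of its level there. Of the keratinocyte list, the 7 markers with at least 1000 scaled fragments there (Krt5, Krt14, Krt15, Trp63, Lypd3, Serpinb5 and Col7a1) were used for this measure, and they stood at 1.71% to 4.42% (median 2.41%) in Heart, 1.35% to 6.66% (median 1.94%) in Kidney and 3.21% to 6.43% (median 3.96%) in Liver. These markers were kept for a high level in the library labelled Testes, which favours low percents elsewhere. Their range is thus a description and not a test. Pkp1 was at 2.15% in Heart, 1.59% in Kidney and 3.69% in Liver. Dsg1a was at 3.06%, 1.60% and 4.01%. These genes lay within the range of the keratinocyte markers in all 3 tissues, and whether the same cells carry them was not tested.

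Other members were above that range. Dsp was at 95.2% in Heart and 9.30% in Liver, but at 3.28% in Kidney, within the range. Dsg2 was at 190%, 14.1% and 234% in Heart, Kidney and Liver, Pkp2 at 1061%, 185% and 309%, and Jup at 59.4%, 29.4% and 14.3%. The cornified envelope plakins split: Evpl reached 47.0% in Kidney against 6.62% in Heart and 6.96% in Liver, and Ppl reached 116.7% in Liver. Eppk1 was within the range in Heart (2.63%) and Kidney (2.17%) and above it in Liver (14.4%). Counted over the 10 genes, 7 were above the range in Heart, 5 in Kidney and 8 in Liver, and the others were within it. The share of all genes above this range was not counted. With the scaling by total fragments, members and markers of a tissue shift by the same factor, so that these counts hold, but Ppl in Liver was then at 50.5% and Dsg2 in Liver at 101.1%. In the lncRNA design, 8 markers with at least 100 scaled fragments in the library labelled Testes spanned 0% to 6.18% in Heart, 0% to 24.5% in Kidney and 0% to 4.00% in Liver. Dsg2 (13.4%) and Ppl (10.2%) in Kidney, and Evpl (3.49%) and Ppl (0%) in Heart, lay within that range. The split of the members thus depended on the design.

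**Figure D4:**
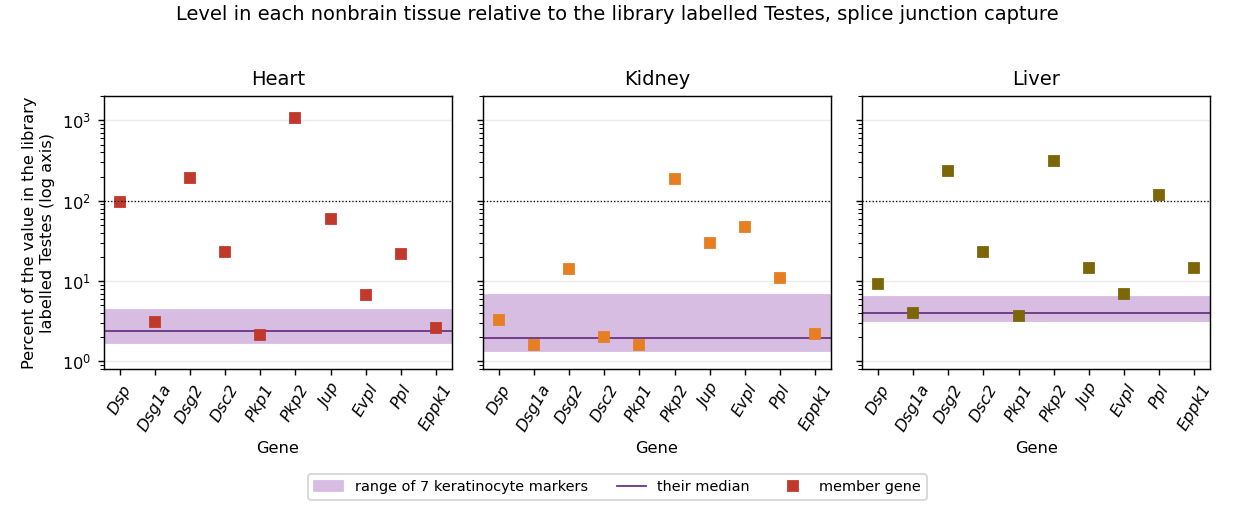
Splice junction level of each gene in Heart, Kidney and Liver as a percent of its level in the library labelled Testes (log axis), with the range of 7 keratinocyte markers as a band and their median as a line. Pkp1 and Dsg1a lie within the band in all 3 tissues, and Pkp2 lies above 100% in all 3.

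Divided by the length of the longest transcript, the levels give the make-up of each library. In the splice junction library of Heart, Dsp was highest per kilobase at 11909, followed by Pkp2 at 6438, Dsc2 at 1823 and Dsg2 at 1163. In that labelled Testes, Dsp at 12513 was followed by Dsc2 at 7851, Pkp1 at 5379, Ppl at 1383 and Jup at 1001, with Pkp2 at 607. Dsp made up 53.2% of the summed level per kilobase of the 10 genes in Heart and 40.9% in the library labelled Testes. In the same design Pkp2 was the highest of the 10 genes in Brain (43.9%), Kidney (45.8%) and Liver (22.3%), and Jup in Cerebellum (64.9%), Cortex (43.2%) and OlfactoryBulb (67.8%). The lncRNA design gave the same leading gene in Heart (Dsp, 34.1%), the library labelled Testes (Dsp, 29.3%), Cerebellum, Cortex and OlfactoryBulb, and another in Brain (Jup, 73.5%), Kidney (Evpl, 36.5%) and Liver (Dsg2, 53.8%). Probe coverage per kilobase was not known, which limits comparisons between genes.

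The plakophilins changed places between splice junction libraries: Pkp1 was 8.87 times Pkp2 per kilobase in the library labelled Testes, while Pkp2 was 55.6 times Pkp1 in Heart, 13.1 times in Kidney and 9.43 times in Liver. With lncRNA probes Pkp1 was 22.5 times Pkp2 in the library labelled Testes, and Pkp2 was 11.3 times Pkp1 in Liver, from 4 Pkp1 fragments. In the splice junction design Dsc2 was 12.9 times Dsg2 in the library labelled Testes, against 1.57 in Heart, 1.85 in Kidney and 1.27 in Liver. The lncRNA design gave 1.95, 0.172, 0.343 and 0.170 in that order, so that the direction turned in Heart, Kidney and Liver. Among splice junction libraries Dsp was 20.02 times Jup in Heart, 12.5 in the library labelled Testes, 8.09 in Liver and 1.39 in Kidney, against 1.93, 2.202, 2.78 and 0.152 with lncRNA probes. Ppl was 95.5 times Evpl in Liver, 18.5 in Heart, 5.70 in the library labelled Testes and 1.34 in Kidney in the splice junction design, and 8.21 times in Liver, 0.369 in the library labelled Testes and 0.0940 in Kidney in the lncRNA design. The balance of these cornified envelope partners thus depended on the probes.

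Between the brain and nonbrain groups, with the log2 values of both designs averaged for each tissue, 8 of the 10 genes were lower in brain and 0 higher (limma on log2(scaled fragments + 1), Benjamini-Hochberg adjusted p below 0.05), where 8.39% of all genes tested were lower and 22.8% higher. Of all genes called, 73.1% were higher in brain, against 84.5% when scaled by total fragments without spike-ins and 50.7% after quantile normalization. The median log2 difference was -5.33 for the 10 genes and 0.35 for all genes tested. Dsp had the largest difference, with a mean of 4.14 ± 1.38 (SD, n = 4 brain tissues, each the mean of both designs) against 11.57 ± 2.52 (SD, n = 4 nonbrain tissues) on the log2 scale. Its fitted difference was -7.43 with an SE of 1.198 and a limma adjusted p of 0.00161. These p-values treat Brain and its subregions as independent units.

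The other genes that fell in brain by the limma test were Dsc2 (-5.95 ± 1.04 SE, adjusted p = 0.0025), Eppk1 (-5.87 ± 1.10, 0.0036), Dsg2 (-5.59 ± 0.92, 0.0018), Pkp1 (-5.51 ± 1.43, 0.0171), Ppl (-5.15 ± 1.10, 0.0069), Pkp2 (-4.14 ± 0.80, 0.0041) and Evpl (-3.34 ± 1.04, 0.0376). Evpl lost its call with a pseudocount of 10 (limma adjusted p = 0.0514) and with the scaling by total fragments (0.166). Evpl also lost it without Cerebellum, Cortex, OlfactoryBulb, Kidney or the library labelled Testes (limma adjusted p 0.062 to 0.0986). The scaling by total fragments gave smaller values, with Evpl at 110.3 instead of 1549.9 in the splice junction library labelled Testes. The same pseudocount of 1 was added to them and so weighed more. Whether the scaling or the pseudocount lost the call there was not tested. Without OlfactoryBulb, Pkp1 missed the threshold as well (limma adjusted p = 0.0518), and in the lncRNA design alone Pkp1 and Ppl did. Dsg1a, at -3.45 ± 1.19, missed the threshold by the limma test (adjusted p = 0.0537) and passed it without the library labelled Testes, where its difference was -2.03, and Jup, at -1.001 ± 0.682, was not told apart between the groups (limma adjusted p = 0.298). Without that library, the Dsg1a call rested on 12, 15 and 29 splice junction fragments in Heart, Kidney and Liver. These are 3.06%, 1.60% and 4.01% of its level in the library labelled Testes, and Pkp1 was at 2.15%, 1.59% and 3.69%. Both lay within the range of the keratinocyte markers, and whether such low levels are expression in these tissues was not tested. Without the library labelled Testes, 8 members were lower in brain, with Dsg1a among them in place of Evpl. The brain and nonbrain libraries did not overlap for 8 genes in the splice junction design (all but Jup and Evpl) and for 6 in the lncRNA design (Dsp, Dsg2, Dsc2, Pkp2, Evpl and Eppk1), each lower in brain, where 11.1% and 6.96% of all genes tested lay lower in brain without overlap, and 15.0% and 19.9% higher. Eppk1, like Dsg1a and Pkp1, was within the range of the keratinocyte markers in Heart (2.63%) and Kidney (2.17%) in the splice junction design. For these genes the separation of the groups rests on low nonbrain levels, and tissue group and pool cannot be told apart.

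**Figure D5:**
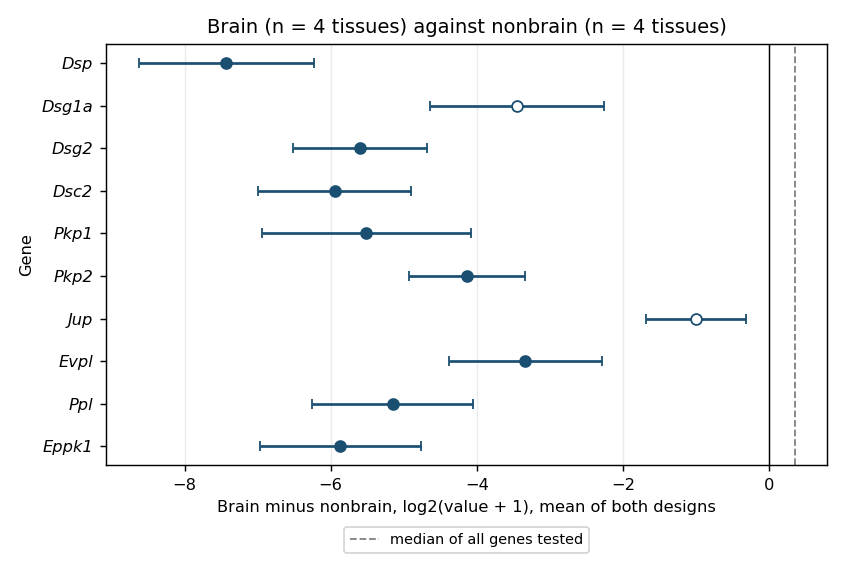
Fitted log2 difference, brain minus nonbrain, with its SE for each gene over both designs, filled where the limma adjusted p is below 0.05 and open where it is not. The filled points run from -7.43 (Dsp) to -3.34 (Evpl), and the open points are Dsg1a at -3.45 and Jup at -1.001.

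The lncRNA probes were not aimed at these coding genes, and all 10 were lower in the lncRNA than in the splice junction design by the limma test, where 34.6% of all genes tested were lower and 60.1% higher. Higher calls made up 63.5% of all calls, and 52.0% after quantile normalization. With the scaling by total fragments, where the pseudocount also weighed more, 9 of the 10 genes were lower. Dsg1a missed the threshold there (limma adjusted p = 0.0837). The log2 difference ran from -6.87 (Pkp2) to -2.01 (Dsg1a, limma adjusted p = 0.0157), with a median of -4.56 against 2.62 for all genes. In the brain tissues, 9 of the 10 genes had at most 10 fragments in each lncRNA library, and 20 of the 40 values were listed at 0. Jup was the exception.

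The brain minus nonbrain difference itself differed between designs for 4 of the 10 genes by limma on the difference between designs of each tissue, where 14.1% of all genes tested had a more positive and 4.07% a more negative difference in the lncRNA design. The share of positive calls was 77.6%, and 42.0% with the scaling by total fragments. The change, lncRNA minus splice junction, was 3.78 for Dsg1a (limma adjusted p = 0.00037), 4.14 for Pkp1 (0.0094), 2.18 for Eppk1 (0.0069) and -1.30 for Dsg2 (0.0478). Dsg1a, Pkp1 and Eppk1 were listed at or near 0 in the lncRNA brain libraries. Some nonbrain lncRNA libraries were also at or near 0: Dsg1a was listed at 0 in Heart, Kidney and Liver, Pkp1 had 1 fragment in Heart and 0 in Kidney, and Eppk1 had 1 fragment in Heart and 4 in Kidney. The call for Dsg2 was lost, and its sign turned, with another pseudocount or scaling (0.42 and 0.34). The call for Dsg1a was lost with the scaling by total fragments, and leaving out 1 tissue kept the Dsg2 call only without Brain. The scaling by total fragments also gave the pseudocount more weight, and the part of each was not tested.

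Of 10 other desmosome genes, 9 were tested. More of them were higher than lower in the library labelled Testes: 8 against Heart, 8 against Kidney (1 lower), 7 against Liver and 7 against Brain (1 lower). The lower gene was Pkp4, at 324 there and 3604 in Kidney. Among the cadherins of stratified epithelium, Dsc3 was at 52650, Dsg3 at 26177, Dsc1 at 7815 and Dsg1b at 3329 in the splice junction library labelled Testes, while Dsg4, the desmoglein of hair, was at 2.67. Pkp3, a plakophilin of simple and stratified epithelia, was at 7086, and 4 of the 9 were lower in brain by the limma test. For this list and the next ones, the shares of all genes tested apply. These were 4.74% higher against Heart, 4.44% against Kidney, 5.75% against Liver and 5.94% against Brain. Lower were 4.34%, 4.78%, 4.94% and 9.98% in that order, and by the limma test 8.39% were lower in brain and 22.8% higher.

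Cornified envelope precursors and cross-linking enzymes made up a list of 34, of which 18 were tested. Higher in the library labelled Testes were 12 against Heart, 13 against Kidney, 14 against Liver and 14 against Brain, where Alox12b, a lipoxygenase of the epidermal barrier, was lower. By the limma test 8 were lower in brain and 2 higher (Tgm3 and Alox12b). Scel (sciellin) was at 8011 and Krtdap at 6403 in the splice junction library labelled Testes, but loricrin, the main protein of the epidermal envelope, was at 5.87 and involucrin at 373. Tgm1, the membrane transglutaminase, was higher in Kidney (11780) and Liver (5031) than in the library labelled Testes (3478), and Abca12, a lipid transporter, was at 5717 in Heart and 5707 in the library labelled Testes. Of 38 Sprr and Lce genes in the assembly, small envelope proteins, 31 were listed at 0 in every library.

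Of 10 plakin family and hemidesmosome genes, 3 were higher in the library labelled Testes than in Heart, 3 than in Kidney, 5 than in Liver and 2 than in Brain, with Col17a1 at 13478 and Itgb4 at 3538. Of 15 epithelial junction genes, 14, 5, 10 and 13 were higher, with the cadherin Cdh1 at 24178, and 9 were lower in brain by the limma test. A list of 15 intercalated disc genes went the other way: 0 were higher and 9 lower than in Heart, and 13 were highest in Heart in the splice junction design, among them Nrap at 210474 and desmin at 98230.

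As a description over the 8 splice junction libraries, the genes closest in pattern to each plakophilin were sought among 9868 genes. Those for Pkp1 were Lipm (Pearson r = 0.999), Atp12a (0.997), Krtdap (0.985), Dsc1 (0.984) and Serpinb5 (0.982), and those for Pkp2 were Uqcrc2 (0.989), Uqcrc1 (0.988), Mrpl43 (0.987), Tufm (0.986) and Cbr4 (0.986). The Pkp2 neighbours are genes of mitochondrial proteins. Among the 10 genes, r was 0.97 for Dsg1a with Eppk1, 0.97 for Dsc2 with Ppl and 0.91 for Pkp2 with Dsg2, and 0.40 for Pkp2 with Jup. The points share 8 tissues, the brain and nonbrain contrast and the library labelled Testes.

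The 10 genes had 44 transcripts, of which 21 had an intron chain not in GENCODE M21. Dsg1a and Evpl had a single transcript each, with the annotated chain. In Jup, transcripts with a first exon of 55 nucleotides at chr11:100386716-100386770, inside the gene and before the annotated start codon at chr11:100386378-100386380, took 70.9% (Liver) to 100% (Heart) of the value of the full-length transcripts in the splice junction design, and 0% in the lncRNA library labelled Testes. The annotated first exon is at chr11:100397636-100397763. In Pkp1, 1 transcript with an inner first exon of 38 nucleotides at chr1:135910959-135910996 took 61.8% in Heart, 67.2% in Kidney, 65.1% in Liver and 68.3% in the library labelled Testes, and again 0% in the lncRNA library labelled Testes. It also ends early, in an exon of 13 nucleotides at chr1:135873650-135873662. Its length is 2068 nucleotides, against 4824 to 5127 for the other transcripts of 14 exons. Its share can thus not be assigned to the first exon alone. The Jup and Pkp1 shares depended on the probe design.

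An additional Pkp2 exon of 152 nucleotides at chr16:16246467-16246618 was in 13.1% of the splice junction value of the full-length transcripts in Cortex, 10.8% in Brain, 6.56% in Cerebellum and 2.79% in OlfactoryBulb, against 2.63% in Liver, 1.25% in Kidney, 0.91% in Heart and 0% in the library labelled Testes. Each brain tissue was above each nonbrain library, with OlfactoryBulb and Liver nearly level. In Dsc2, an alternative exon of 46 nucleotides near the end of the coding region, which tells the a and b tails apart, was in 17.2% in the library labelled Testes, 16.4% in Heart, 11.9% in Kidney and 5.33% in Liver, and in 0.02% (Cortex) to 17.4% (OlfactoryBulb) in brain, all in the splice junction design. The lncRNA library labelled Testes, with 440 Dsc2 fragments, gave 52.4%.

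Because many Dsp transcripts began upstream of the annotated start and many Jup transcripts inside the gene, the 250 bases before the RefSeq start of each are shown, from GRCm38.p6 and 5′ to 3′ on the gene's strand. Of the 10 genes, these 2 had an entry.
Dsp promoter, chr13:38151044-38151293, plus strand: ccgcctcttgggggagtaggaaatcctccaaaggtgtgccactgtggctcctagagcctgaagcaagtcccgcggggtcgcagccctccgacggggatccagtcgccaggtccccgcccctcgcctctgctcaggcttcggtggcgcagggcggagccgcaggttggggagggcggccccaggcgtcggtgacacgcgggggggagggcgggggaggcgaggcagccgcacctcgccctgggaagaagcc
Jup promoter, chr11:100397791-100398040, minus strand: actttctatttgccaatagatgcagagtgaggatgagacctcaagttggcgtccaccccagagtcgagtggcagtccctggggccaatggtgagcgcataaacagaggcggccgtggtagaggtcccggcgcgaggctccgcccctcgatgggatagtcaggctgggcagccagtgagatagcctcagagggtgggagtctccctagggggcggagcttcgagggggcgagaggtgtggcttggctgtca
Windows of 300 bases, reaching 50 bases past the start, were searched on both strands for TGANTCA, which AP-1 binds, GGAATG, bound by TEAD factors, AACNGGTT, bound by Grainyhead-like factors, and TATAAA, the TATA box. Neither window held a match to any of them. In 32851 promoters of the same length the shares with a match were 7.81%, 14.7%, 2.09% and 13.6%, in that order. The first exon of the upstream Dsp transcripts lies outside this window.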

How the data were processed

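Ribosomal RNA-depleted libraries were captured with either probe design, aligned to GRCm38 with TopHat2 and assembled with Cufflinks 2.2.1 by the authors. The deposited signal values are the authors' Cuffnorm 2.2.1 estimates of fragments per transcript divided by a size factor per library. Here transcripts were assigned to GENCODE M21 genes by exonic overlap on the same strand and summed (Python 3.11.15, NumPy 2.4.6). Gene sums were whole multiples of a step per library (100% within 0.1 step, for sums up to 20 steps), and fragments were recovered from them. The deposited transcript values are fractional estimates, and no count test was run on them. Genes and gene models with a mean of at least 10 scaled fragments were fitted with limma 3.58.1 in R 4.3.3 on log2(value + 1): brain against nonbrain on the mean of both designs per tissue, design against design with tissue as a block, and the difference between designs per tissue. P-values were adjusted by Benjamini-Hochberg over 30790 genes. Ratios carry 95% exact Clopper-Pearson intervals, and zeros a floor of 3 fragments per library. Folds on the log2(value + 1) scale understate changes of low genes. Named genes are the 10 members, members of the lists and, for Pkp1 and Pkp2, the 5 coding genes of highest r with a mean of at least 100. The scripts were tested on simulated data. Spike-ins took 7.81% to 45.6% of fragments. The members and the gene lists were chosen with earlier results of these data known. Other pseudocounts, scalings, filters, single designs and left-out libraries were tried. The fits and 4-fold counts with the scaling by total fragments kept a pseudocount of 1 on smaller values. The weight of the pseudocount thus changed with that scaling.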

Additional observations from a re-analysis of the deposited data

Results flagged for a closer look

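In 53 groups of 4 libraries, 4 held a value whose gap to its nearest neighbour passed Dixon's 95% critical value, where chance alone gives about 1 in 20. Levels were taken as log2(value + 1) and transcript shares as percent. Dsg1a in the lncRNA library labelled Testes stood at 74.1 scaled fragments, against 0 in Heart, Kidney and Liver. Dsg1a in the splice junction library of Cortex stood at 0.372 and Pkp1 in the lncRNA library of Cortex at 1.40, and each of these is 1 fragment. In these Dsg1a and Pkp1 groups the other libraries were listed at 0. Any value above 0 then passes, and the chance rate does not hold for them. Dsc2, the desmocollin, stood at 267.6 in the splice junction library of Cerebellum, above 57.6 to 74.9 in the other brain tissues.

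The brain minus nonbrain difference changed with the probe design, by limma (log2, lncRNA minus splice junction), for Dsg1a (3.78), Pkp1 (4.14), Eppk1 (2.18) and Dsg2 (-1.30).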

How the results depend on the processing

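No paired analysis was possible because all libraries carry the same replicate number, so that brain and nonbrain tissues cannot be matched by it. Only the 2 designs of a tissue were paired, by tissue. Of 640 values of the 10 genes under other settings, 591 kept direction and side of the threshold, 22 lost a call, 21 gained 1 and 6 changed sign, of which Dsg2 was called before. Between brain and nonbrain 6 to 9 genes were lower, the lowest number without OlfactoryBulb and in the lncRNA design alone, and leaving out 1 tissue gave 6 to 8. The number of genes whose contrast differed between designs rose from 4 to 7 with a pseudocount of 10 and was 3 to 4 without 1 tissue. In that difference, Dsg2 turned from -1.30 to 0.42 with a pseudocount of 10 and to 0.34 with values scaled by total fragments without spike-ins, and Jup to -0.76 with that scaling. Without 1 tissue, Jup ran from -0.0194 (without Liver) to 0.33 and Pkp2 from -0.19 (without OlfactoryBulb) to 0.78. Ppl in the library labelled Testes against Liver turned to 0.57 with that scaling. The cause was not tested. That scaling gave smaller values than the deposited ones, so that the pseudocount of 1 weighed more. Calls and gene counts under it can thus not be assigned to the scaling alone. The members counted as higher in the library labelled Testes stayed at 6 against Heart and 9 against Brain in all settings, ran from 7 to 9 against Kidney and from 6 to 7 against Liver. Over all genes tested, 2584 were lower in brain, against 1413 with that scaling, 4895 after quantile normalization, 1457 to 1677 without Cerebellum, Cortex or OlfactoryBulb and 1521 in the lncRNA design alone, and 7029 were higher, against 3825 in the splice junction design alone. The difference between designs was more negative for 1254 genes, against 1981 with a pseudocount of 10 and 6342 with that scaling. Genes higher in the library labelled Testes numbered 1366 to 1828 over the 4 tissues compared, against 3214 to 4158 at 2-fold, 656 to 903 with a pseudocount of 10, 577 to 823 with that scaling, 3334 to 5762 in the lncRNA design alone and, against Brain and Heart, 3012 and 2214 in the splice junction design alone. Genes lower there numbered 1335 to 3073, against 2755 to 4779 at 2-fold, 709 to 1728 with a pseudocount of 10, 390 to 1362 with that scaling and 3030 to 7309 in the lncRNA design alone. Few fragments of these genes were in the lncRNA libraries of the brain tissues, 40 to 105 in totals of 18296877 to 20355272, and values that rest on 1 to 3 fragments have wide intervals.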
